A study of Mus musculus with 9 samples.

Results

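Expression of the transcriptional co-activators YAP (Yap1) and TAZ (Wwtr1), of the 4 TEAD factors that carry them to DNA (Tead1, Tead2, Tead3, Tead4), of the Hippo kinases Lats1, Lats2 and Stk3 and of the scaffold Nf2 was followed across intestinal organoids and tumoroids. The 10 genes were found by symbol among 50600 genes in the deposited tables, and all 10 were among the 16208 genes tested. RNA was sequenced from 9 libraries in 3 groups of 3 numbered replicates, from lines of different mice within a group. Organoid libraries with the same number are treated as pairs. The 6 organoid libraries came from WT C57BL/6 small intestine (epithelial intestinal cells) kept for 24 hr in an equal mix of conditioned medium (cM) and double-strength organoid medium with EGF, Noggin and R-spondin1. The 3 tumoroid libraries came from tumours of Apc1638N/+ mice of mixed strain that were older than the WT mice, were left untreated and, by the study's methods, grew with EGF and Noggin but no R-spondin. The labels give these strains, whereas the methods give a mixed background for all mice. Genotype, age, medium and any difference in strain cannot be told apart in a comparison with tumoroids. For the organoids, the titles and the treatment fields name opposite media. The organoid groups are named here by title, as T-cM-titled and as WT-cM-titled. Should the treatment field be right, each direction between them is the opposite one, whereas comparisons of tumoroids with the mean of both groups stay as they are.

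In the Hippo pathway, the kinase Stk3 (MST2) activates Lats1 and Lats2, helped by Nf2 at the membrane, and the LATS kinases phosphorylate YAP and TAZ, which are then held in the cytoplasm or degraded. Unphosphorylated YAP and TAZ enter the nucleus, bind a TEAD factor and switch on target genes. The pathway acts mostly on protein location, which RNA levels do not measure. In the intestine YAP is known for its part in regeneration after injury and in tumour growth.

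The promoters of the co-activator pair are shown first, because Wwtr1 differed between tumoroids and organoids and Yap1 did not pass the test. RefSeq promoter windows (GRCm38.p6, 250 bases before to 50 after the annotated start) matched 7 of the 10 genes, in 12 windows, and none was found for Tead1, Tead4 and Stk3. The letters GGAATG, known as a TEAD-binding core, were searched on both strands (reverse complement CATTCC) and occurred in 6 of the 12 windows, belonging to 4 genes (Wwtr1, Yap1, Lats2, Tead3). The 2 windows of Wwtr1 overlap and hold the same match, 136 and 170 bases before their starts. The same letters occurred in 14.7% of all 32851 windows of this length. In Lats2 the match lay 5 bases into the transcript, and no window of Tead2, Lats1 or Nf2 held one. The 250 bases before the start are printed 5′ to 3′ in the sense of the gene, with the match in capitals.
Wwtr1, chr3:57575911-57576160, minus strand: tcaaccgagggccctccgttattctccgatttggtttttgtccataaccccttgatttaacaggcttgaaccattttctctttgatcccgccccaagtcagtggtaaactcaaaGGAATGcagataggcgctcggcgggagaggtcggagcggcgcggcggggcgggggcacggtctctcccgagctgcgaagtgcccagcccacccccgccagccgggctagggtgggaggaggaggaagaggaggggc
Yap1, chr9:8004597-8004846, minus strand: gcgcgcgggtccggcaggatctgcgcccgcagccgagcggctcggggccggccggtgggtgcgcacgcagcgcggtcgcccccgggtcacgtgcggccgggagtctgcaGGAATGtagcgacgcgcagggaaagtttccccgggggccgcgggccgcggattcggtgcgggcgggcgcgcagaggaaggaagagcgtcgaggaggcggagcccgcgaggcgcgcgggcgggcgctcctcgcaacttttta
The match began 136 bases before the start in the Wwtr1 window shown and 141 bases before it in Yap1. A match is a run of letters and not a measured binding site.

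The genes lie on 9 chromosomes (GRCm38). Yap1 is at chr9:7931999-8004596, Wwtr1 at chr3:57455649-57575910, Tead1 at chr7:112679318-112906807, Tead2 at chr7:45215753-45233644, Tead3 at chr17:28331671-28350817 and Tead4 at chr6:128224288-128300823. Lats1 is at chr10:7681214-7716460, Lats2 at chr14:57689662-57758388, Stk3 at chr15:34875496-35178921 and Nf2 at chr11:4765845-4849536. All are protein-coding. Exons of the antisense genes Gm20416 (Yap1, at most 1 count per library) and Cd37 (Tead2, at most 7 counts) share bases with a member, and Gm49361, which shares bases with Lats2 on the same strand, was not analysed here.

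Reads counted on genes came to between 16541635 and 25170966 in a library. Levels between genes are given in TPM, which are scaled per transcript length, and the same gene is compared between groups in CPM, counts scaled to the TMM-normalised library size. The 2 scales shift tumoroids differently: the median gene was 0.16 higher in tumoroids on the log2 scale after TMM and 0.52 higher in log2(TPM + 1). The labelled epithelial identity was checked with 8 epithelial markers, whose summed level lay between 10527 and 15020 TPM in every library, most of it from keratin genes. Single markers differed between the groups: Vil1 averaged 968 TPM in organoids and 314 TPM in tumoroids, Cdx1 226 and 115 TPM, and Krt18 931 and 3435 TPM. Cdx1 ran from 58.9 to 218 TPM in tumoroids, the highest lying within the organoid range of 194 to 275 TPM. Summed fibroblast markers reached at most 0.33 TPM and endothelial markers 1.68 TPM. In tumoroids the summed immune markers reached 11.95 to 58.3 TPM against 0.78 to 2.20 TPM in organoids, nearly all from Cd68, with Ptprc (CD45) at most 0.14 TPM and Cd3e and Adgre1 at 0 in tumoroids. The summed smooth muscle markers reached 4.02 to 92.5 TPM in tumoroids against 0 to 1.24 TPM in organoids, nearly all from Acta2 (92.5 TPM in tumoroid 3), with Des at most 0.12 TPM. Stomach markers summed to 1.63 to 20.9 TPM in organoids, mostly Tff1, and 1.89 to 6.37 TPM in tumoroids, where Muc5ac, at 0 reads in all 6 organoid libraries, reached 0.67 to 5.35 TPM. The part of these signals in the results was not tested.

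In organoids Nf2, Lats1 and Yap1 had the highest levels of the 10 genes and Tead2 and Wwtr1 the lowest. Over the 6 organoid libraries the mean level was 44.6 TPM for Nf2 (SD 6.41), 31.9 for Lats1 (SD 3.33), 27.9 for Yap1 (SD 4.59), 15.3 for Stk3 (SD 2.04) and 14.3 for Tead3 (SD 1.59). Tead1 followed at 4.02 TPM (SD 1.22), Tead4 at 2.37 (SD 1.23), Lats2 at 2.13 (SD 0.65), Tead2 at 1.04 (SD 0.72) and Wwtr1 at 1.03 (SD 0.37). The higher gene of each neighbouring pair was higher in all 6 libraries for Nf2 over Lats1, Lats1 over Yap1, Yap1 over Stk3 and Tead3 over Tead1. The order was not the same in every library for Stk3 and Tead3 (4 of 6), Tead1 and Tead4 (5 of 6), Tead4 and Lats2 (4 of 6), Lats2 and Tead2 (5 of 6) and Tead2 and Wwtr1 (3 of 6).

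**Figure D1:**
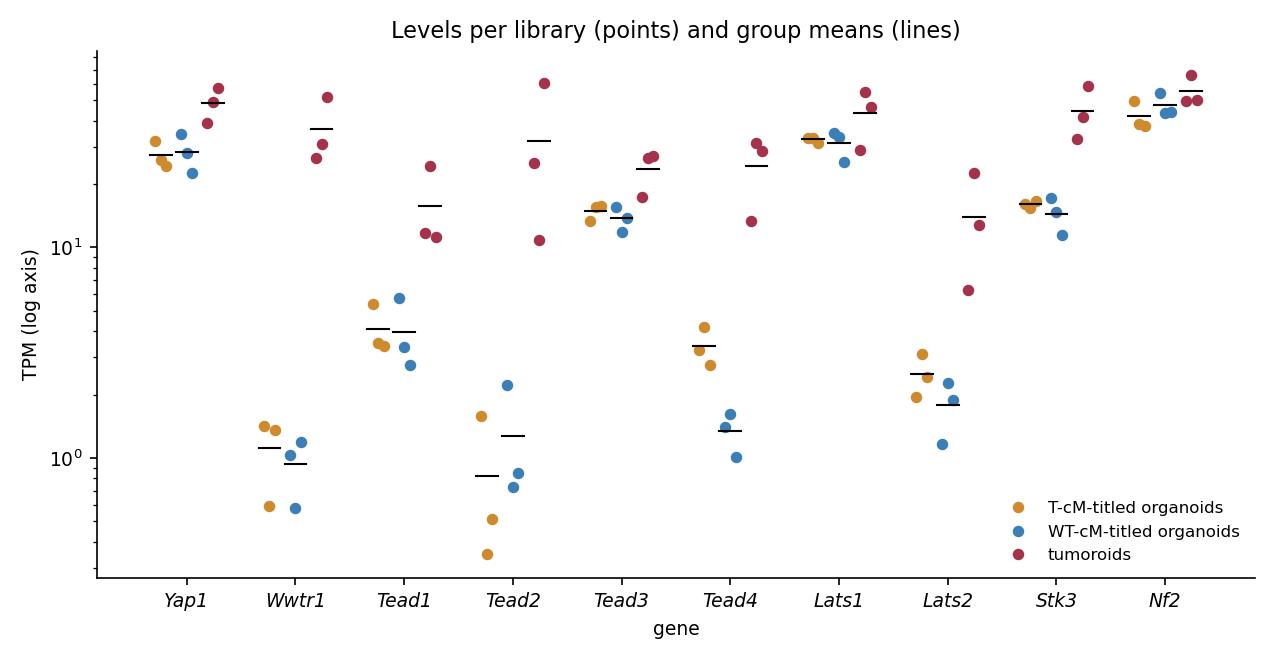
Level of each gene in TPM (log axis) in the 3 T-cM-titled organoid, 3 WT-cM-titled organoid and 3 tumoroid libraries, with a line at each group mean. On this scale 8 of the 10 genes, all but Lats1 and Nf2, lie higher in all 3 tumoroids than in any organoid library (43.1% of all genes do on this scale), whereas in CPM Yap1 and Tead3 overlap as well. Wwtr1 lies at 26.6 to 51.6 TPM against at most 1.42 TPM.

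In tumoroids the levels lay closer together. Means were 55.4 TPM for Nf2 (SD 9.34), 48.3 for Yap1 (SD 9.03), 44.2 for Stk3 (SD 12.9), 43.3 for Lats1 (SD 13.01) and 36.4 for Wwtr1 (SD 13.3). Tead2 followed at 32.15 TPM (SD 25.5), Tead4 at 24.4 (SD 9.70), Tead3 at 23.7 (SD 5.44), Tead1 at 15.8 (SD 7.53) and Lats2 at 13.9 (SD 8.25). Of the 9 neighbouring pairs in that order, 8 kept it in only 2 of 3 libraries, the exception being Tead3 over Tead1, and the ranges of all 9 pairs overlapped.

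Comparing tumoroids with organoids asks whether tumour epithelium carries the pathway's genes at other RNA levels than normal epithelium. TAZ, 3 of the 4 TEAD genes and 2 of the 3 kinases were higher in tumoroids, while YAP itself, Tead3, Lats1 and Nf2 did not pass the test. At an adjusted p under 0.05, 6 of 10 were higher and 0 were lower (edgeR's quasi-likelihood test, Benjamini-Hochberg adjustment), beside 29.6% of all genes tested higher and 20.8% lower. All 6 also had a log2 fold change above 1, as did 21% of all genes. The libraries of the 2 sides did not overlap for these 6 genes, as for 45.8% of all genes. The median log2 fold change was 1.23 over the 10 genes and 0.16 over all genes. Since this is bulk RNA, more cells of a type and more RNA per cell cannot be told apart.

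Of the co-activators, Wwtr1 stood at 2.64, 1.15 and 2.71 CPM in T-cM-titled organoids, 1.87, 1.16 and 2.48 CPM in WT-cM-titled organoids and 38.7, 39.7 and 68.9 CPM in tumoroids. Every tumoroid was far above every organoid library, which held only 17 to 56 reads of the gene. The log2 fold change was 4.61 ± 0.32 (SE, adjusted p = 5.2e-06), a fold of 24.4. Yap1 stood at 115, 98.0 and 94.2 CPM, at 121, 109 and 91.3 CPM and at 110, 121 and 148 CPM in the same order of groups. These values overlapped, and the log2 fold change was 0.27 ± 0.14 (adjusted p = 0.136). With upper-quartile in place of TMM factors it was 0.37 and passed (adjusted p = 0.0297, edgeR). Wwtr1 made up 2.02% to 5.27% of the summed Yap1 and Wwtr1 TPM in organoids and 38.8%, 40.5% and 47.5% in tumoroids. The means were 42.3% ± 4.59 (SD, n = 3) and 3.61% ± 1.42 (SD, n = 6), with an exact two-sided permutation p = 0.0238 (adjusted over 6 shares 0.0286), the smallest that 3 against 6 libraries allow.

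Of the TEAD factors, Tead2 showed the widest spread. It stood at 2.96, 0.678 and 1.01 CPM in T-cM-titled organoids, 4.07, 1.46 and 1.77 CPM in WT-cM-titled organoids and 36.9, 13.9 and 80.7 CPM in tumoroids. The groups did not overlap, although tumoroid 3 held 5.79 times the CPM of tumoroid 2. The log2 fold change was 4.48 ± 0.58 (SE, adjusted p = 1.8e-04), and without tumoroid 3 it was 3.68 (adjusted p = 3.6e-04). Tead4 stood at 4.55, 6.11 and 4.17 CPM in T-cM-titled organoids, 1.92, 2.43 and 1.59 CPM in WT-cM-titled organoids and 14.7, 30.3 and 28.7 CPM in tumoroids, a log2 fold change of 2.97 ± 0.26 (adjusted p = 1.8e-05). Its 3 groups formed 3 separate ranges. Tead1 stood at 28.2, 19.3 and 19.3 CPM, at 29.7, 18.97 and 16.3 CPM and at 48.4, 88.9 and 42.3 CPM in the same order, a log2 fold change of 1.45 ± 0.27 (adjusted p = 0.0016). Here tumoroid 2 was the high one. Tead3 stood at 22.9, 28.0 and 29.0 CPM, at 26.2, 21.8 and 26.5 CPM and at 23.4, 31.3 and 33.4 CPM, overlapping in all groups (0.19 ± 0.16, adjusted p = 0.348).

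**Figure D2:**
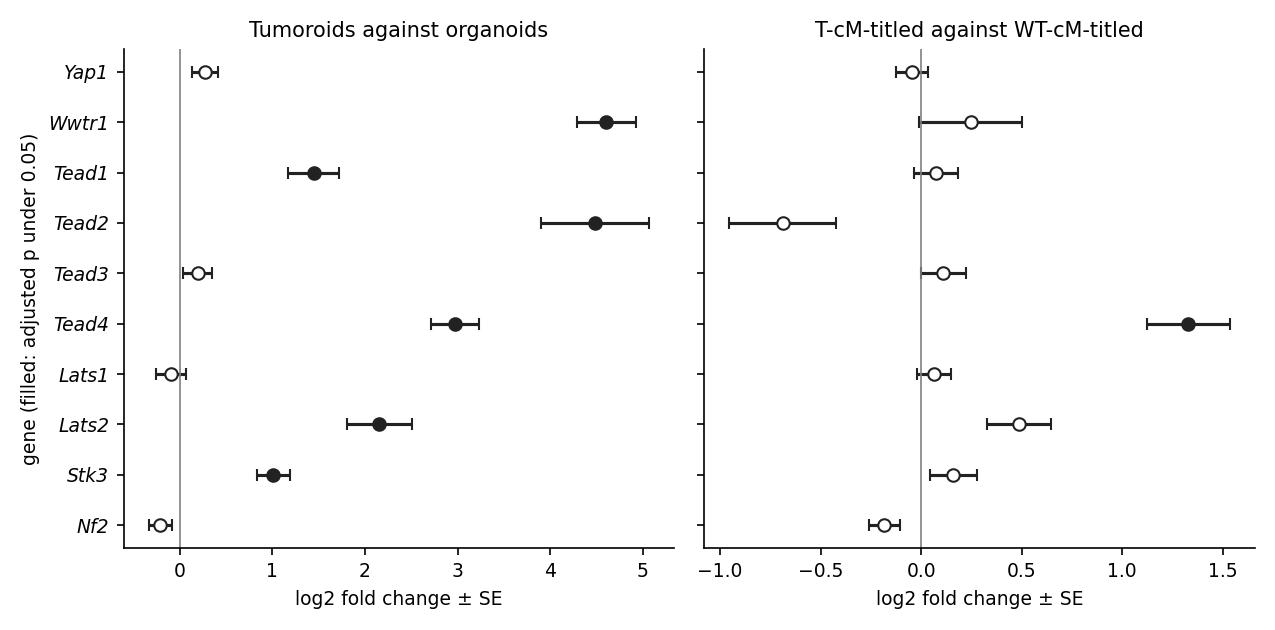
Log2 fold change of each gene with its standard error, for tumoroids against the mean of both organoid groups (left) and for the T-cM-titled against the WT-cM-titled group (right), on different axes. Filled points have an adjusted p under 0.05, which is 6 genes on the left and Tead4 alone on the right.

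The make-up of the TEAD transcripts, which restates these levels as shares, differed too. In organoids Tead3 was the main TEAD gene, with 56.8% to 74.9% of the summed TPM of the 4 genes, whereas in tumoroids it made up 21.3% to 28.5%. Its own mean level was 14.3 TPM in organoids and 23.7 TPM in tumoroids, so the smaller share reflects higher levels of the other TEAD genes. The mean share was 66.3% ± 6.26 (SD, n = 6) in organoids and 25.2% ± 3.59 (SD, n = 3) in tumoroids (exact two-sided permutation p = 0.0238, adjusted 0.0286). The share of Tead2 was 1.48% to 8.92% in organoids and 37.3%, 11.7% and 47.4% in tumoroids, and that of Tead4 was 5.50% to 17.7% in organoids and 19.7%, 33.7% and 22.5% in tumoroids, both also at the smallest exact permutation p of 0.0238 (adjusted 0.0286). The share of Tead1 averaged 18.3% ± 3.87 (SD, n = 6) and 17.4% ± 8.73 (SD, n = 3), with an exact permutation p = 0.81. The leading TEAD gene was not the same in all tumoroids, being Tead2 in tumoroids 1 and 3 and Tead4 in tumoroid 2. The organoid libraries come in pairs. With each pair averaged, 3 against 3 values, the exact test cannot go below 0.1.

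**Figure D3:**
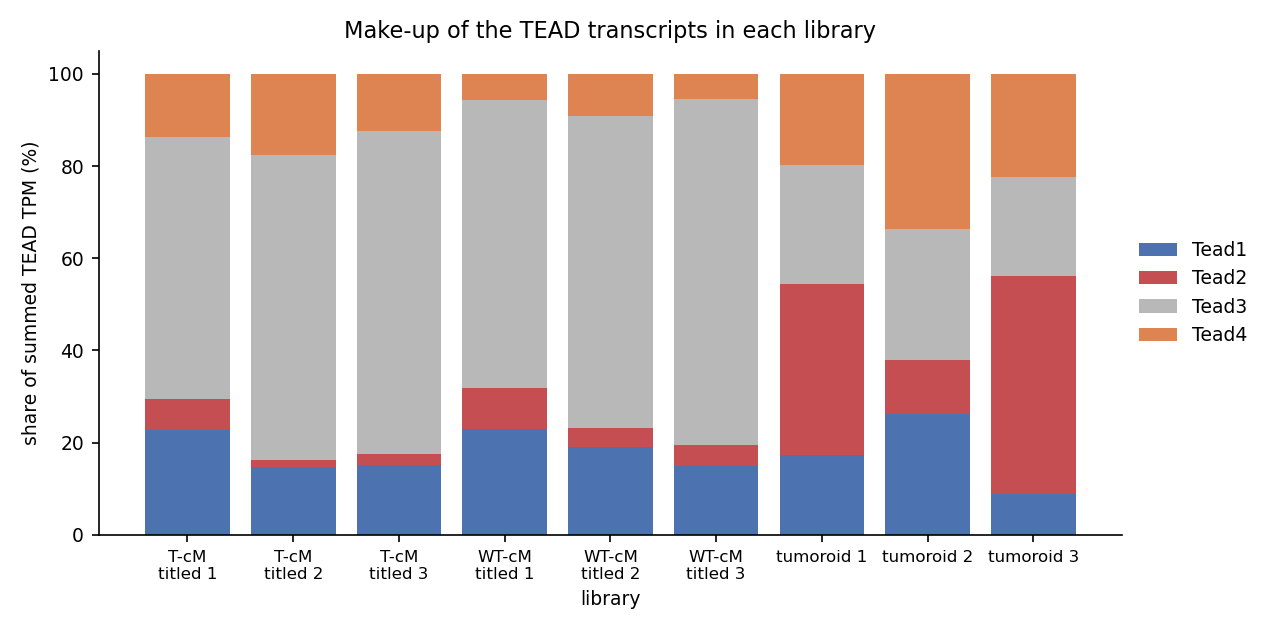
Share of each TEAD gene in the summed TPM of Tead1 to Tead4 (y axis, percent), 1 bar per library. The grey Tead3 part covers 56.8% to 74.9% of each organoid bar and 21.3% to 28.5% of each tumoroid bar, and the red Tead2 part is smallest among tumoroids in tumoroid 2 (11.7%).

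Of the kinases, Lats2 stood at 5.50, 9.23 and 7.44 CPM in T-cM-titled organoids, 3.24, 6.93 and 6.02 CPM in WT-cM-titled organoids and 13.96, 44.3 and 25.97 CPM in tumoroids. No tumoroid fell within the organoid range, and the log2 fold change was 2.15 ± 0.35 (SE, adjusted p = 7.2e-04). Lats2 is also known as a target gene of YAP. Its sister kinase Lats1 stood at 94.0, 98.7 and 95.8 CPM, at 97.1, 101 and 81.6 CPM and at 64.7, 107 and 94.5 CPM, with overlapping groups (-0.10 ± 0.16, adjusted p = 0.648). The share of Lats2 in the summed TPM of both was 6.30% ± 1.80 (SD, n = 6) in organoids and 22.9% ± 5.92 (SD, n = 3) in tumoroids (exact two-sided permutation p = 0.0238, adjusted 0.0286), so that Lats1 was the more abundant in every library. Stk3 stood at 20.3, 20.4 and 22.5 CPM, at 21.2, 19.9 and 16.2 CPM and at 32.4, 36.1 and 52.7 CPM, a log2 fold change of 1.01 ± 0.17 (adjusted p = 9.7e-04) with all 3 tumoroids on top. Nf2 stood at 132, 107 and 108 CPM, at 141, 124 and 131 CPM and at 104, 121 and 95.7 CPM (-0.21 ± 0.13, adjusted p = 0.190).

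The 4 members that did not pass were also set against the median of all genes, without a test. Relative to that median under TMM, Yap1 was 0.11 and Tead3 0.03 higher on the log2 scale, while the value was -0.26 for Lats1 and -0.38 for Nf2. On the log2(TPM + 1) scale, where the raw values of Lats1 (0.39) and Nf2 (0.30) turn positive, the values relative to the median were -0.13 and -0.21, and Yap1 and Tead3 then passed the test, which made 8 of 10 genes, beside 47.4% of all genes higher and 12% lower on that scale.

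Each organoid group was also compared with tumoroids on its own; both comparisons share the tumoroid libraries. The count was 6 higher and 0 lower against WT-cM-titled organoids (23.4% of all genes higher, 18.5% lower) and again 6 higher and 0 lower against T-cM-titled organoids (25.3% and 19.2%). For Tead4 the log2 fold change was 3.63 ± 0.35 and 2.31 ± 0.32, for Lats2 2.38 ± 0.44 and 1.93 ± 0.44, and for Tead2 4.17 ± 0.76 and 4.79 ± 0.79, with adjusted p values from 5.0e-05 to 0.0057 (edgeR). Without tumoroid 3 the values for Tead2 were 3.37 and 3.99, and without T-cM-titled library 1 the second was 5.67. For Wwtr1 it was 4.73 ± 0.43 and 4.49 ± 0.42. Yap1, Tead3, Lats1 and Nf2 passed in neither, although with upper-quartile factors Yap1 passed against T-cM-titled organoids (0.41, adjusted p = 0.0447, edgeR). The 3 tumoroids lay lower than all 3 WT-cM-titled libraries for Nf2 (-0.31 ± 0.14, adjusted p = 0.115, edgeR), which passed as lower with DESeq2 (-0.36, adjusted p = 0.0296) and without tumoroid 2 (-0.42, adjusted p = 0.0499, edgeR).

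Comparing the 2 organoid groups asks whether medium from tumour cells alters the pathway's genes in WT epithelium. Within the 10 genes the difference rested on Tead4, which was 2.51-fold higher in T-cM-titled organoids. It was higher in 3 of 3 pairs of libraries with the same replicate number, by 1.20, 1.29 and 1.34 in log2 CPM, and the 2 groups did not overlap. The fitted log2 fold change was 1.33 ± 0.21 (SE, adjusted p = 5.2e-05, edgeR with the replicate number as a block). The count was 1 of 10 higher and 0 lower, beside 5.03% of all genes higher and 5.05% lower. With a log2 fold change above 1 it was also 1, beside 0.673% of all genes, and the groups did not overlap for 1 of 10 members, as for 10.4% of all genes. Counts of Tead4 were modest, at 35 to 90 reads per organoid library. Without the replicate block the log2 fold change was again 1.33, with an adjusted p = 0.603 and an unadjusted p = 0.0012, and 0 of all 16208 genes passed in that fit (904 at an unadjusted p under 0.05). Without replicate pair 2 it was 1.32 (adjusted p = 0.227), in a fit where 1 gene passed in all.

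The other 9 genes did not pass. Lats2 came nearest, higher in 3 of 3 pairs by 0.74, 0.41 and 0.30 in log2 CPM (0.49 ± 0.16, adjusted p = 0.0507). Tead2 was lower in 3 of 3 pairs by -0.45, -1.01 and -0.75 (-0.69 ± 0.27, adjusted p = 0.108), at 10 to 74 reads per library. Nf2 was also lower in 3 of 3 pairs (-0.18 ± 0.08, adjusted p = 0.161). Values for the rest ranged from -0.05 ± 0.08 for Yap1 to 0.25 ± 0.26 for Wwtr1, with adjusted p values from 0.478 to 0.818. The share of Tead4 in the TEAD transcripts was higher in 3 of 3 pairs, by 8.17, 8.43 and 6.82 percentage points, and 3 pairs cannot give an exact sign-flip p below 0.25.

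**Figure D4:**
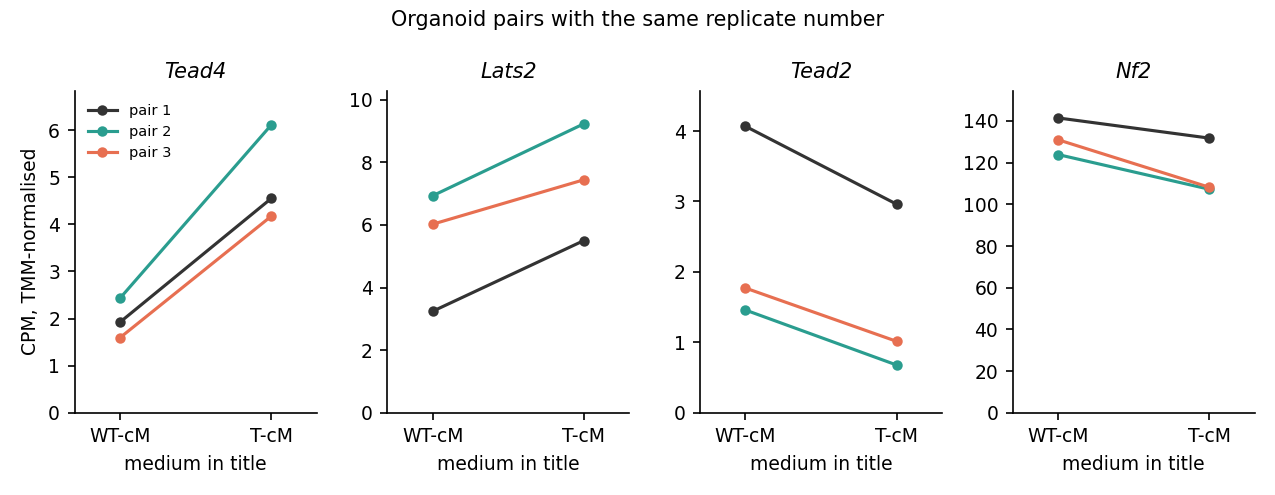
CPM of Tead4, Lats2, Tead2 and Nf2 in the 6 organoid libraries, with a line joining the libraries of the same replicate number, and the medium named in the title on the x axis. Tead4 and Lats2 are higher on the T-cM side in all 3 pairs and Tead2 and Nf2 are lower, and only the difference for Tead4 passes the test (1.33 on the log2 scale).

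The rest of the pathway was described with a list of 57 other genes, of which 52 were tested. In tumoroids 20 were higher and 7 lower (29.6% and 20.8% of all genes), with a median log2 fold change of 0.26 against 0.16 for all genes. These counts include 4 genes that met the filter on low values (a TPM of 1 in any library) only through the side where they are high. Such a selection favours a difference. They are Ptpn14, Amotl1 and Map4k1, with 2 to 9, 12 to 59 and 6 to 20 reads in the organoid libraries, and Strip2, at most 0.92 TPM in tumoroids. All 10 members met the filter on both sides. Of the 48 pathway genes that did so, 17 were higher and 6 lower, beside 24.4% and 23.2% of the 12855 such genes in all. Among these 48, the junctional and membrane regulators had 6 of 13 higher and 0 lower. The kinases outside the core cassette had 3 of 11 higher and 2 lower, the LIM and STRIPAK genes 4 of 12 and 2, the turnover and tyrosine kinase genes 2 of 6 and 1, the core cassette genes 1 of 4 and 1, and the VGLL genes 1 of 2 and 0. With a log2 fold change beyond 1, and the 4 genes counted, there were 13 higher (21% of all genes) and 3 lower (12.1%) of the 52. On log2(TPM + 1), with its upward shift, the counts for the whole list were 39 higher and 3 lower, again beside 47.4% and 12% of all genes.

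Within the core cassette, the adaptor Sav1, which holds the MST kinases together with LATS, rose by 0.53 ± 0.13 on the log2 scale (adjusted p = 0.0069, edgeR) and the LATS co-activator Mob1b fell by 0.70 ± 0.19 (adjusted p = 0.0117). Stk4 (MST1), the sister of Stk3, was at 64.5 CPM ± 7.09 (SD, n = 3) in tumoroids and 76.2 ± 5.14 (SD, n = 6) in organoids, and Mob1a at 209 ± 27.0 and 185 ± 16.4, neither passing (adjusted p = 0.101 and 0.311, edgeR). Ptpn14, a phosphatase that binds YAP, was at 74.8 CPM ± 27.8 (SD, n = 3) in tumoroids and 0.311 ± 0.133 (SD, n = 6) in organoids, a difference given without a fold or test for the reason above. Csnk1e, a casein kinase that marks YAP for degradation, was at 95.9 against 16.999 CPM, a log2 fold change of 2.496. The corresponding values were 61.9 and 5.96 CPM with a log2 fold change of 3.50 for Wwc2, a KIBRA-family activator of LATS, and 183 and 16.4 CPM with 3.57 for Ajuba, a LIM protein that restrains LATS. All 3 passed (adjusted p at most 8.5e-06, edgeR). Among the genes lower, log2 fold changes were -2.16 for Tnik and -1.11 for Stk38, both kinases, and -0.92 for the tyrosine kinase Yes1. Strip2, a STRIPAK phosphatase subunit, is not given as a test. Genes on both the activating and the restraining side of LATS were among those higher in tumoroids.

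Among the other TEAD cofactors, Vgll4, which competes with YAP for TEAD, was higher in tumoroids at 99.1 CPM ± 21.9 against 48.7 ± 7.55 (log2 fold change 1.03 ± 0.17, adjusted p = 7.1e-04, edgeR). Vgll3 did not pass (1.15 ± 0.47, adjusted p = 0.0678, edgeR). Vgll1, at most 0.60 TPM, and Vgll2, at 0 in every library, were below the filter, as were Fat4, Dchs1 and Dchs2.

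**Figure D5:**
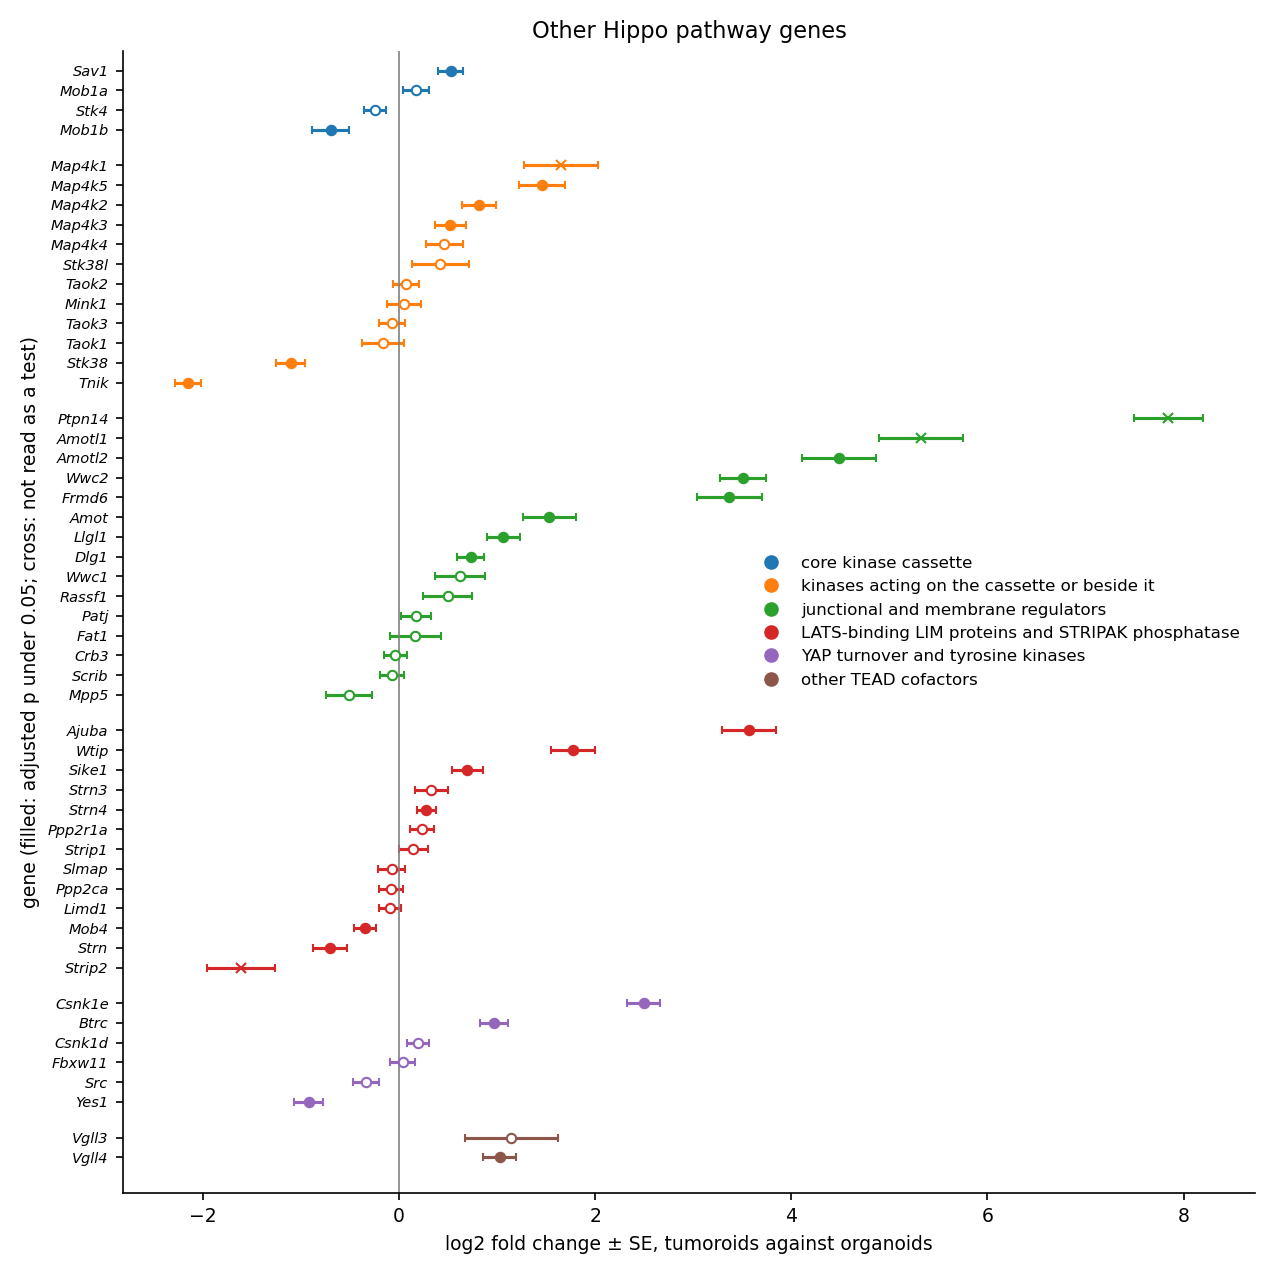
Log2 fold change with standard error of the 52 tested pathway genes, tumoroids against the mean of both organoid groups, coloured by role, with filled points for an adjusted p under 0.05 and crosses for the 4 genes that met the filter on 1 side only. The 17 filled points above 0 include Ajuba (3.57) and the 6 below it include Tnik (-2.16).

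Between the organoid groups 9 of the 52 genes were higher in T-cM-titled organoids and 0 lower, beside 5.03% and 5.05% of all genes, with a median log2 fold change of 0.09. They were Wwc2 (1.24), Amotl1 (1.14), Ajuba (1.05), Wtip (0.67), Mink1 (0.51), Stk38l (0.44), Patj (0.31), Stk38 (0.28) and Wwc1 (0.26), each higher in 3 of 3 pairs. Wwc1, Wwc2, Patj and the YAP-binding Amotl1 belong to junctions and membrane, Ajuba and Wtip are LIM proteins that bind LATS, and Mink1, Stk38 and Stk38l are kinases. Ajuba stood at 22.0 CPM ± 3.38 (SD, n = 3) in the T-cM-titled group and 10.8 ± 2.34 (SD, n = 3) in the WT-cM-titled group, and Wwc2 at 8.37 ± 0.871 and 3.55 ± 0.172. In the comparison with tumoroids, which shares these libraries, Stk38 was lower in tumoroids (-1.11), and Ajuba (3.57), Wwc2 (3.50) and Wtip (1.77) were higher. Mink1 (0.05), Stk38l (0.42), Patj (0.17) and Wwc1 (0.62) did not pass. Amotl1, which passed the filter only through the tumoroids, is not given as a test there. The count of 9 was 11 without replicate pair 1 (8.36% of all genes higher), 0 without pair 2 (0.00617%, which is 1 gene) and 3 without pair 3 (1.83%). It was 3 with limma voom (2.07%), 5 with DESeq2 (2.72%) and 0 without the block, where 0 of all genes passed.

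As readouts of YAP and TEAD activity, Cyr61 stood at 68.3 CPM ± 24.0 (SD, n = 3) in tumoroids and 1.59 ± 0.439 (SD, n = 6) in organoids (log2 fold change 5.41, adjusted p = 1.4e-06, edgeR), and Ctgf at 41.0 ± 28.0 and 0.367 ± 0.290 CPM. Ankrd1 was at 0 reads in all 6 organoid libraries and at 10.8, 19.5 and 117 TPM in tumoroids. Ctgf, with 1 to 17 reads in the organoid libraries, and Ankrd1 passed the filter on low values only through the tumoroids, so their levels there are a description without a test. Between the organoid groups Ctgf (1.24 ± 0.65, adjusted p = 0.266) and Cyr61 (-0.08 ± 0.30, adjusted p = 0.941) did not pass (edgeR).

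The genes whose profile over the 9 libraries was most like that of each member that passed were found among 10676 genes with a mean of at least 100 counts, by the root mean square difference of centred log2 CPM. For Tead4 they were Syt8 (0.24), Clcf1 (0.33) and Wwc2 (0.33), the last a pathway gene. For Wwtr1 they were Cfap43 (0.27), Tmem158 (0.31) and Fmnl2 (0.34), for Tead2 Cdo1 (0.38), Sorcs2 (0.41) and Ptk7 (0.43), and for Tead1 Tarbp1 (0.12), Snhg15 (0.16) and Piezo1 (0.17). For Lats2 they were Hs3st1 (0.23), Ahnak (0.30) and Ikbip (0.32), and for Stk3 BC030336 (0.10), Rnf169 (0.12) and Gm10033 (0.13). Apart from Wwc2, none of them is on the lists of members and pathway genes.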

How the data were processed

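RNA-seq was measured in 9 mouse libraries. The authors aligned reads with STAR to mm10, counted them on Gencode genes, and deposited raw counts per gene and TPM. The tool used for counting, its setting for strand and the gene lengths used for TPM are not given in the sources used here. Groups came from the titles. Genes that reached a TPM of 1 in any library were tested on the deposited counts with edgeR 4.0.16 (R 4.3.3, TMM, quasi-likelihood in its older form, Benjamini-Hochberg over all 16208 genes). The organoid groups were fitted over 6 libraries with a block for replicate number, following the study's model, and tumoroids over all 9 without one. The tumoroid fits thus took the 6 organoid libraries as independent, which pairs are not. Same-numbered organoid libraries deviated together (correlations 0.55, 0.34 and 0.55), tumoroids with the organoids of their number did not (0.16, 0.10 and -0.07). The fits were run on simulated counts with the same spread for every gene and no pairing, which checks the code and not how well the models suit these data. Shares used exact permutation tests in Python 3.11.15. Alternatives used limma 3.58.1 and DESeq2 1.42.0. In the blocked organoid fit the p-values measure how much the differences vary between pairs. In the tumoroid fits they measure the spread between libraries within a group. Named genes are the 10 members, the core cassette, VGLL genes and readouts, pathway genes passing between organoids, the 4 smallest p per direction in tumoroids, and the 3 nearest profiles. Members and lists were chosen with earlier results of these data known. Counting error weighs most where reads are few, as for Tead2, Wwtr1 and Tead4 in organoids. Pathway counts under the alternatives, and over genes meeting the filter on both sides, were added after seeing the data.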

Additional observations from a re-analysis of the deposited data

How the results depend on the processing

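The count of 6 members passing was 5 to 8 under the alternatives for the 3 tumoroid comparisons, with Yap1 added by upper-quartile factors against the mean and T-cM-titled organoids, Yap1 and Tead3 by log2(TPM + 1) in all 3, Nf2 as lower against WT-cM-titled organoids by DESeq2 and without tumoroid 2, and Stk3 lost against T-cM-titled organoids with a log2 fold change above 1. Between the organoids the count of 1 became 2 with no TPM filter (Lats2 added), 0 with limma on log2(TPM + 1), 0 without the replicate block and 0 in a fit of all 9 libraries without the block, and 0 to 1 with a replicate pair left out. The block added to the tumoroid comparisons changed no member's call. Tead4 between the organoids ranged from 0.90 to 1.37 on the log2 scale. The pathway count of 9 between organoids was 3 with limma voom, 5 with DESeq2, 3 with a log2 fold change above 1, 0 with limma on log2(TPM + 1), 0 without the replicate block, 0 over 9 libraries without the block and 0 to 11 with a pair left out. The tumoroid counts of 20 higher and 7 lower were 39 and 3 with log2(TPM + 1) and 13 and 3 with a log2 fold change beyond 1. The shares of Tead2, Tead3, Tead4, Wwtr1 and Lats2 differed by 27.4, -41.2, 14.6, 38.7 and 16.6 percentage points and lost their p with paired organoid means or a tumoroid left out, where the design cannot pass (smallest exact p 0.1 and 0.0714); without 1 tumoroid they ranged from 19.8 to 37.6, -42.8 to -39.2, 10.4 to 17.4, 36.1 to 40.4 and 13.3 to 19.1. For Tead1 the difference of -0.88 ranged from -5.28 to 3.45, positive without tumoroid 3.

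Signs turned for members that did not pass. Lats1 was 0.0060 (mean of both) and 0.026 (WT-cM-titled) with upper-quartile factors, and 0.39, 0.42 and 0.35 with log2(TPM + 1) against the mean, WT-cM-titled and T-cM-titled organoids, where Nf2 was 0.30, 0.22 and 0.39. With 1 library left out, Lats1 ranged from -0.263 to 0.086, -0.238 to 0.108 and -0.288 to 0.064 against the same 3, positive without tumoroid 1. Between organoids with a pair left out, Tead3 ranged from -0.022 to 0.251 (negative without pair 2), Tead1 from -0.023 to 0.150, Lats1 from -0.039 to 0.111 and Stk3 from -0.014 to 0.271 (each negative without pair 3). The cause was not tested, beyond the shift of all genes on the TPM scale. Depth limits Tead2, Wwtr1 and Tead4 in organoids, at 10 to 90 reads per library.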
